A study of Mus musculus with 39 samples.

Results

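The 8 genes described here, Ccl2, Ccl3, Ccl4, Ccl6, Ccl7, Ccl8, Ccl9 and Ccl12, encode CC chemokines that monocytes and macrophages make. They were taken as a named list and matched by symbol to the Ensembl rows of the count table, where they are 8 of 43430 genes. Their levels were followed across all 39 RNA-seq libraries of the study, which fall into 8 groups of sorted mouse lung cells. Every mouse was of the C57BL/6J strain. The monocyte libraries (20) are labelled as lung monocytes of naive mice. The macrophage libraries (19) are labelled as Siglec F low alveolar macrophages, sorted after bleomycin, whose toxicity to the lung is followed by fibrosis. In each cell type the mice were young or old and were treated with saline or with ISRIB. ISRIB acts on the translation factor eIF2B and so inhibits signalling downstream of stress kinases (the integrated stress response). Each group held 5 libraries, except young ISRIB macrophages with 4. By the sample labels, young mice were 8 to 12 weeks old and old mice over 18 months, while the series text gives 3 to 5 and 18 to 24 months. The series text also places all cells at day 21 after bleomycin, with ISRIB or vehicle given each day from day 7, so the timing for the mice labelled naive is not known. Cell type and bleomycin go together in these labels and cannot be told apart. Nothing in the labels says that replicates came from separate animals, so p-values measure the spread between these samples.

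CC chemokines are small secreted proteins that bind G protein-coupled receptors on leukocytes and draw those cells along a gradient. Ccl2, Ccl7 and Ccl12 are ligands of CCR2, the receptor by which inflammatory monocytes leave the marrow and enter injured tissue. Ccl3 is a ligand of CCR1, and Ccl4 is a close relative of Ccl3 that draws T cells and monocytes. Ccl6 and Ccl9 are rodent chemokines of myeloid cells that act through CCR1. Ccl8 of the mouse is known as a ligand of CCR8. After lung injury, monocytes that enter the alveoli become macrophages and take on features of the resident alveolar macrophage over time.

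All 8 genes lie on chromosome 11, in 2 clusters of the GRCm38 assembly. Ccl2 (chr11:82035571-82037453), Ccl7, Ccl12 and Ccl8 stand in that order on the plus strand. After a gap of 1456119 bases come Ccl9 (chr11:83572919-83578636), Ccl6 (chr11:83587882-83593087) and Ccl3 on the minus strand, then Ccl4 on the plus strand. Ccl9 and Ccl6 are neighbours, 9245 bases apart. A noncoding antisense partner crosses Ccl6 (E230016K23Rik) and another crosses Ccl2 (Gm17268), in both cases with 0 shared exon bases. They held 4890 counts against 882844 for Ccl6 and 5 against 14647 for Ccl2. Runs of 50 bases shared with other annotated transcripts made up 1.97% of the Ccl9 exons and 0% of the other 7.

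The 250 bases before the start site are shown for 2 neighbouring pairs, since Ccl6 and Ccl9 moved in opposite directions between monocytes and macrophages while Ccl12 and Ccl8 were both sparse in monocytes. The sequences are those of RefSeq on GRCm38.p6, whose table held 5 of the 8 genes. They read 5′ to 3′ toward the gene, with capitals for CACTTCC and for TATAAA on either strand.
Ccl6, chr11:83593088-83593337, minus strand: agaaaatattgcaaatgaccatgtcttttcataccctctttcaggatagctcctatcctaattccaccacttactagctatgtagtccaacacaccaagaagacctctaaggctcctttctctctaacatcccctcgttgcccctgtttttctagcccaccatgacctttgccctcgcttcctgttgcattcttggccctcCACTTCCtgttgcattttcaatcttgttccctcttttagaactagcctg
Ccl9, chr11:83578637-83578886, minus strand: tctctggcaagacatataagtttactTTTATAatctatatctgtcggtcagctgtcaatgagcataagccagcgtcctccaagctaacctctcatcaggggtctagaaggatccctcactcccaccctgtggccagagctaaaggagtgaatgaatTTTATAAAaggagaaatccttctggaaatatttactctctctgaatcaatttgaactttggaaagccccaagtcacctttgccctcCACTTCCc
Ccl12, chr11:82101595-82101844, plus strand: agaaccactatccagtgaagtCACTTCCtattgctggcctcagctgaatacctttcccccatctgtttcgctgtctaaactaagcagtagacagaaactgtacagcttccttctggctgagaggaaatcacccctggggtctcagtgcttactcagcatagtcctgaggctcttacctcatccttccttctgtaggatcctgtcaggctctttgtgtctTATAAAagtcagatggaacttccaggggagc
Ccl8, chr11:82114935-82115184, plus strand: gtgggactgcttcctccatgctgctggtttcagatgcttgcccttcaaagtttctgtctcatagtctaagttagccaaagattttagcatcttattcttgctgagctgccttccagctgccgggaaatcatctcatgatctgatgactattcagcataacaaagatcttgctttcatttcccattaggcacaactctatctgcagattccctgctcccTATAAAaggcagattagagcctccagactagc

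Ccl12 and Ccl8 each held TATAAA close to the start, with its first base 31 and 32 bases upstream. In Ccl9 the nearest TATAAA began 92 bases upstream, and the Ccl6 window held none. That motif stood in 12.37% of 32851 windows of this length. The Ccl6 and Ccl9 windows shared a run of 13 bases, gccctccacttcc, which was in 5 of the 32851 windows (0.0152%). The 5 include the windows of Ccl6 and Ccl9 themselves. The run was picked as the longest match of the pair, so its rarity follows in part from that choice. This run holds the CACTTCC motif, which began 49 bases upstream of Ccl6 and 8 bases upstream of Ccl9. The motif also began 229 bases upstream of Ccl12, outside that run, and was in 8.554% of all windows. CACTTCC was chosen after the sequences had been read. A degenerate NF-kappaB motif, in 45.8% of windows, was found only before Ccl9 among the 5 genes, and the C/EBP-ATF core TGATGNAA, in 3.452% of windows, was found before none of them. Each motif was searched on both strands, and matches are descriptions of these letters only.

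Levels are given as CPM, the count scaled to the library total, and genes are compared with each other only after division by exon length (CPM per kilobase). Per kilobase, Ccl6 was the highest of the 8 in both cell types, at 616 in monocytes and 2331 in macrophages. It ranked 48 of 23094 genes with a count in monocytes and 18 of 22512 in macrophages. Ccl9 came next in both, at 302 in monocytes and 164 in macrophages per kilobase. In macrophages Ccl3 followed at 53.8 CPM per kilobase, then Ccl8 at 19.5, Ccl2 at 18.6, Ccl7 at 10.5, Ccl12 at 6.43 and Ccl4 at 4.69. In monocytes the order after Ccl9 was Ccl2 at 55.9, Ccl3 at 52.6 and Ccl4 at 16.7 CPM per kilobase, with Ccl7, Ccl12 and Ccl8 each below 1. Of all counts on the 8 genes, Ccl6 held 51.7% and Ccl9 42.8% in monocytes, against 87.1% and 11.1% in macrophages. The plot of the 8 chemokines by library shows every value.

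The first comparison set macrophages against monocytes in saline-treated mice of each age. Ccl6 and Ccl7 were higher in macrophages at both ages, and Ccl2, Ccl4 and Ccl9 were lower. Ccl3 was lower in young macrophages and higher in old ones. Ccl8 and Ccl12 did not pass the filter on low counts among monocytes alone, so they entered through the macrophages and had to differ, and they are left out of the counts. In the edgeR quasi-likelihood test over 13587 genes, 2 of the other 6 chemokines rose and 4 fell in young mice, where 31% of all genes were higher and 29% lower at an adjusted p under 0.05. In old mice 3 rose and 3 fell, against a background of 29.7% higher and 27.3% lower. With so large a background, these counts are no result about the chemokines as a set.

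Ccl6 in young saline monocytes was 1257, 1069, 983, 1184 and 945 CPM, and in young saline macrophages 2919.8, 2678, 2798, 2855 and 2841 CPM. Old saline monocytes held 822, 1295, 1148, 1211 and 1133 CPM, and old saline macrophages 3536, 3914, 5098, 3410.1 and 5416 CPM. Every macrophage library was above every monocyte library. The log2 difference was 1.41 ± 0.15 (SE) in young mice (adjusted p = 2.69e-10) and 2.06 ± 0.16 in old mice (adjusted p = 1.58e-14). Its neighbour Ccl9 went the other way. In young saline mice the mean of Ccl9 was 1013 ± 105 CPM in monocytes and 464 ± 78.8 CPM in macrophages (SD, n = 5 each), a log2 difference of -1.08 ± 0.19 (SE, adjusted p = 4.04e-06) with no overlap. In old saline mice the means were 879 ± 147 and 521 ± 131 CPM (SD, n = 5 each), with a log2 difference of -0.62 ± 0.18 (SE, adjusted p = 0.00438), and there the highest macrophage library passed the lowest monocyte library.

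The ratio of Ccl6 to Ccl9 CPM therefore parted the cell types in all 39 libraries. It ran from 0.831 to 1.38 in the monocyte groups and from 5.10 to 14.5 in the macrophage groups. Group medians in macrophages were 6.15 for young saline, 7.42 for young ISRIB, 7.93 for old saline and 9.85 for old ISRIB. In monocytes they were 1.12 and 1.16 in young saline and ISRIB, and 1.32 and 1.31 in old saline and ISRIB.

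**Figure D1:**
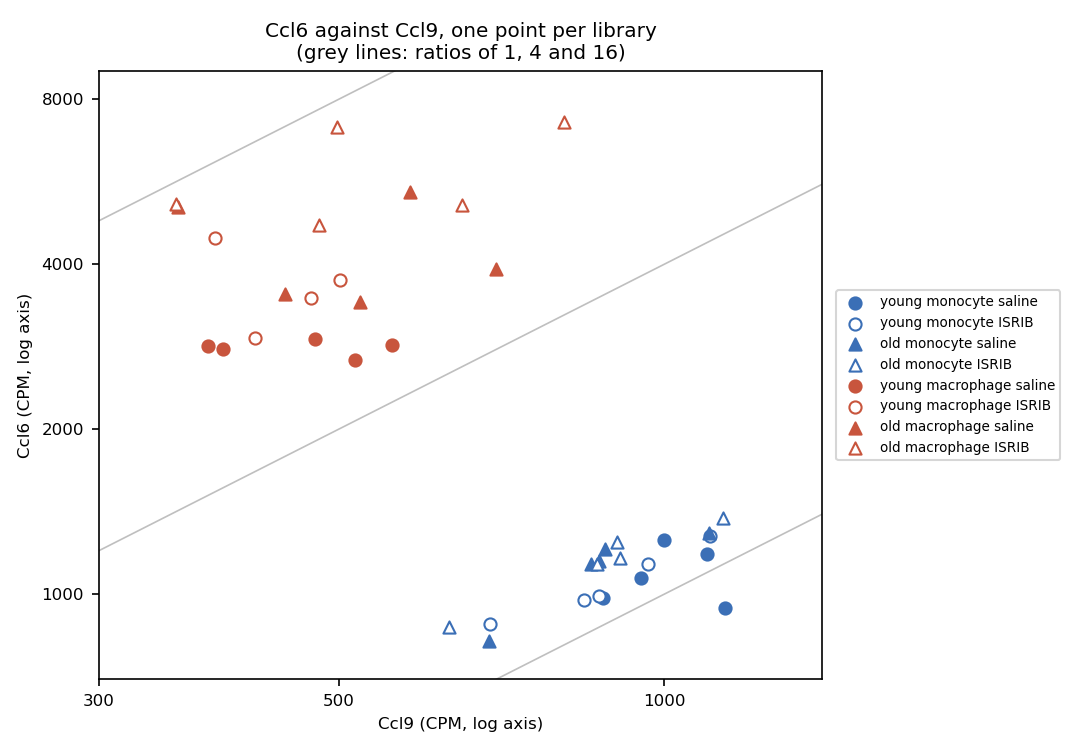
Ccl6 against Ccl9 in CPM on log axes, one point per library, with grey lines at ratios of 1, 4 and 16. Monocytes (blue) lie near the line of ratio 1 and macrophages (red) between the lines of 4 and 16, with no library between the clusters.

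In young saline mice Ccl4 averaged 14.9 ± 2.43 CPM in monocytes and 2.83 ± 1.13 CPM in macrophages (SD, n = 5 each). The log2 difference was -2.38 ± 0.41 (SE, adjusted p = 4.93e-06), with no overlap. In old saline mice it was -1.07 ± 0.39 (SE, adjusted p = 0.0196), with overlapping libraries, and it no longer passed without monocyte replicate 4, macrophage replicate 1 or macrophage replicate 3 (adjusted p up to 0.0857 over the left-out libraries). Ccl3, which sits beside Ccl4 in the genome, differed by -1.34 ± 0.26 (SE, adjusted p = 3.37e-05) in young mice without overlap. In old mice Ccl3 was higher in macrophages by 0.77 ± 0.26 (SE, adjusted p = 0.0100), with overlapping libraries, and leaving out old saline macrophage replicate 5 ended the call (adjusted p = 0.0816). Ccl3 and Ccl4 thus did not keep 1 ratio. The median ratio of Ccl3 to Ccl4 CPM was 4.08 in young saline monocytes, 3.20 in old saline monocytes, 7.94 in young saline macrophages and 11.7 in old saline macrophages, and its range among old saline macrophages was 6.84 to 40.2.

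Among the CCR2 ligands, Ccl2 was the one that monocytes held in quantity. Young saline monocytes held 68.4, 66.4, 50.7, 67.5 and 81.4 CPM and young saline macrophages 17.3, 27.8, 12.3, 33.2 and 15 CPM. In old saline mice the monocytes held 55.7, 98.8, 69.2, 106 and 86.6 CPM and the macrophages 19.9, 24.2, 30.7, 13.1 and 31.5 CPM. No macrophage library reached the lowest monocyte library of its age. The log2 difference was -1.63 ± 0.28 (SE, adjusted p = 5.15e-06) in young and -1.68 ± 0.28 (SE, adjusted p = 2.82e-06) in old mice.

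Ccl7, the next gene along, averaged 1.04 ± 0.594 CPM in monocytes and 6.39 ± 1.61 CPM in macrophages of young saline mice (SD, n = 5 each). Its log2 difference was 2.72 ± 0.66 (SE, adjusted p = 4.96e-04) in young and 4.23 ± 0.69 (SE, adjusted p = 1.89e-06) in old mice, without overlap at either age. The median ratio of Ccl2 to Ccl7 counts was 59.3 in young saline monocytes and 4.30 in young saline macrophages. Ccl12 was sparse in monocytes, with 0 counts in 11 of 20 libraries. In old saline mice the monocytes held 0, 0.196, 0, 0.175 and 1.14 CPM and the macrophages 3.24, 5.09, 4.61, 4.63 and 5.70 CPM, without overlap. In young saline mice the monocytes held 0, 0, 0, 2.61 and 0.125 CPM and the macrophages 3.79, 6.46, 0, 2.90 and 1.31 CPM, and those groups overlapped. No test is given for Ccl12 between cell types, for the reason given above.

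Ccl8, the CCR8 ligand, showed the sharpest contrast in detection. It had 0 counts in 18 of 20 monocyte libraries and at least 14 counts in each macrophage library. Young saline macrophages held 8.24, 15.3, 9.79, 19.6 and 6.29 CPM against 0 in all 5 young saline monocyte libraries, where 3 counts over the group is the limit that 0 allows. On that limit Ccl8 was at least 145-fold higher in young saline macrophages. In old saline mice 618 counts in macrophages stood against 1 in monocytes, a ratio of 610 in CPM (95% interval 109 to 24116, counting error only). Counts were pooled over the libraries of a group, so the spread between libraries is left out. These values give a size and no test, since Ccl8, like Ccl12, entered the fit through the macrophages and had to differ.

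Age was compared next, within macrophages. Old macrophages held more Ccl6 than young ones under saline and under ISRIB, and more Ccl3 under saline. All 8 chemokines had a positive log2 difference in saline, in ISRIB and in the mean of both. Their median was 0.59 in saline, 0.57 in ISRIB and 0.53 in the mean, beside 0.00, 0.01 and 0.00 over the 12171 genes tested. The mean is built from the other 2 comparisons and adds no separate evidence. Nor are the 8 signs independent, as 23 of 28 pairs of these genes correlated positively over the macrophage libraries with group means removed. In saline 2 of the 8 passed the test, where 0.937% of all genes were higher in old mice at an adjusted p under 0.05. In ISRIB 1 of 8 passed, against 0.444%, and in the mean of both treatments 2 of 8, against 3.12%. Scaling by library totals in place of TMM moved the share of higher genes among all calls in saline from 80.9% to 64.4%, and all 8 chemokines stayed positive under it. The sign was the same in every fit in saline and in the mean of both treatments. In ISRIB, Ccl4 (0.12 ± 0.54, SE, adjusted p = 0.959) turned negative in limma voom (-0.05), with a replicate block (-0.07), without replicate 3 or 4 of young ISRIB (-0.10 and -0.02) and without replicate 5 of old ISRIB (-0.41).

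Among saline macrophages Ccl6 rose from 2818 ± 89.9 CPM (SD, n = 5) in young mice to 4275 ± 923 CPM (SD, n = 5) in old ones, and every old library was above every young one. The log2 difference was 0.64 ± 0.13 (SE, adjusted p = 0.0144). Under ISRIB the young libraries held 4465, 3747, 2936 and 3477 CPM and the old libraries 4718, 5146, 7119, 5129 and 7283 CPM. Those groups did not overlap either, with a log2 difference of 0.68 ± 0.14 (SE, adjusted p = 0.0148). In the mean of both treatments it was 0.66 ± 0.10 (SE, adjusted p = 1.87e-04), and this call held without any 1 of the 19 libraries. The saline call was lost without old saline replicate 3 or 5 (adjusted p up to 0.0595). The ISRIB call was lost without replicate 3 or 4 of young ISRIB, or replicate 3 or 5 of old ISRIB (adjusted p up to 0.0745).

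Ccl3 in young saline macrophages was 22.6, 25.5, 28, 18.4 and 20.9 CPM, and in old saline macrophages 40.1, 29.4, 68.0, 44.4 and 89.1 CPM. The groups did not overlap, and old replicates 3 and 5 were the highest. The log2 difference was 1.27 ± 0.27 (SE, adjusted p = 0.0172), and it was lost without young saline replicate 4 or old saline replicate 3 or 5 (adjusted p up to 0.0759). Under ISRIB the young libraries spread over 45.5, 52.4, 15.2 and 25.1 CPM and overlapped the old libraries at 49.5, 43.0, 63.9, 42.2 and 59.6 CPM. There Ccl3 differed by 0.55 ± 0.28 (SE) and did not pass (adjusted p = 0.444). In the mean of both treatments Ccl3 rose by 0.91 ± 0.19 (SE, adjusted p = 0.00592) and kept the call without any 1 library.

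The other 6 did not pass in old against young macrophages. Ccl7 came nearest, at 0.81 ± 0.26 (SE, adjusted p = 0.0741) in the mean of both treatments. It averaged 6.39 ± 1.61 and 9.26 ± 3.94 CPM (SD, n = 5 each) in young and old saline macrophages, while old ISRIB macrophages averaged 11.9 ± 7.04 CPM (SD, n = 5), and replicate 3 there held 23.6 CPM. It passed without young ISRIB replicate 1, old saline replicate 4 or old ISRIB replicate 4 (adjusted p down to 0.0311). Ccl2 stood at 0.50 ± 0.22 (SE, adjusted p = 0.216), Ccl12 at 0.55 ± 0.44 (adjusted p = 0.563), Ccl8 at 0.39 ± 0.26 (adjusted p = 0.470), Ccl4 at 0.37 ± 0.37 (adjusted p = 0.671) and Ccl9 at 0.27 ± 0.13 (adjusted p = 0.300). Ccl9, unlike its neighbour Ccl6, had overlapping ages, at 464 ± 78.8 CPM (SD, n = 5) in young and 521 ± 131 CPM (SD, n = 5) in old saline macrophages.

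Marker sums of several cell types, though not of all, also differed between these macrophage groups. The summed CPM of 9 markers of mature alveolar macrophages had a median of 5225 (4674 to 7664) in young saline, 6061 (4945 to 8242) in young ISRIB, 7548 (4625 to 9061) in old saline and 11489 (6660 to 14275) in old ISRIB macrophages, with every marker above 0. Siglecf, a marker of the mature cells, was in that list and rose in old saline macrophages by 0.71 ± 0.17 (SE, adjusted p = 0.0308). The 7 B cell markers had medians of 7.72 (5.22 to 25.7), 14.4 (8.56 to 19.6), 89.5 (15.6 to 312) and 164 (120 to 453) CPM in the same order, none at 0 in a group. The 10 T and NK cell markers had medians of 2.06, 3.52, 9.61 and 14.5 CPM. The 8 classical monocyte markers had medians of 4476 (4012 to 6923), 5339 (4360 to 7269), 6794 (4072 to 7939) and 9807 (5879 to 12192) CPM. That list shares Chil3 with the mature alveolar macrophage markers, and its member Ccr2 fell with age in macrophages, so the sum does not stand for all its genes. The 7 dendritic cell markers had medians of 13.1, 11.8, 18.5 and 26.5 CPM, with young libraries at 14.1 CPM at most and old ones at 15.9 CPM at least. The 8 nonclassical monocyte markers ran the other way, with medians of 1103, 1041, 1001 and 884 CPM. Eosinophil and mast cell markers summed to at most 4.43 CPM, with Epx at 0 in 3 of the 4 macrophage groups. In sorted bulk samples, a change in the mix of cells and a change of RNA per cell cannot be told apart, and the part of these markers in the chemokine differences was not tested.

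In monocytes, age went with less Ccl3. Young saline monocytes held 48.2, 56.0, 53.7, 70.1 and 74.1 CPM and old saline monocytes 32.8, 41.7, 22.2, 39.6 and 37.4 CPM. Young ISRIB monocytes held 45.1, 44.9, 40.3, 46.3 and 44.8 CPM and old ISRIB monocytes 35.9, 26.8, 18.0, 17.8 and 10.7 CPM. Under both treatments every old library was below every young one. In the mean of both treatments Ccl3 fell by 0.91 on the log2 scale (SE 0.15, adjusted p = 0.00923), as 1 of 6 chemokines that could be tested, where 0.0247% of 12170 genes were lower at an adjusted p under 0.05. Ccl8 and Ccl12 were too sparse in monocytes to test. The Ccl3 call held without any 1 of the 20 libraries and in each alternative fit. In the same libraries the 9 markers of mature alveolar macrophages summed to medians of 1540 (954 to 1917) in young saline, 1294 (846 to 2142) in young ISRIB, 702 (664 to 1364) in old saline and 892 (602 to 1049.6) in old ISRIB monocytes, with Marco at 0 in young saline and Fabp1 in young ISRIB and old saline. That list shares Chil3 with the 8 classical monocyte markers, whose medians were 8042, 8632, 10546 and 7741 CPM in the same order. The 7 dendritic cell markers had medians of 126, 151, 64.2 and 139 CPM and the 8 nonclassical monocyte markers of 6566, 5855, 4758 and 6144 CPM in that order. Their part in the Ccl3 difference was not tested.

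Taken within 1 treatment, Ccl3 differed by -0.83 ± 0.21 (SE, adjusted p = 0.232) in saline and -0.99 ± 0.21 (SE, adjusted p = 0.178) in ISRIB and did not pass in edgeR. None of the 6 passed in old against young saline monocytes, where 3 of 12170 genes did (0.0247%). At an unadjusted p under 0.05 there were 2 of the 6 and 1072 of all genes, and DESeq2 called 1 of the 6 and 41 genes, limma voom 0 and 1. None passed in ISRIB monocytes either, where edgeR called 0 genes (0%). There 1 of the 6 and 803 of all genes had an unadjusted p under 0.05, DESeq2 called 1 of the 6 and 14 genes, and limma voom 0 and 1. Ccl3 was the chemokine DESeq2 called in both cases. The other 5 differed by -0.39 to 0.09 in the mean of both treatments, at adjusted p of 0.655 or more.

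The age difference of Ccl3 thus ran in opposite directions in the 2 cell types. The difference of the age differences, macrophages minus monocytes, was 1.82 ± 0.26 (SE, adjusted p = 1.05e-04), and it passed without any 1 of the 39 libraries (adjusted p up to 4.35e-04). Of the 6 chemokines kept by the low-count filter in each cell type, only Ccl3 passed, where 0.449% of 13587 genes were higher. Ccl8 and Ccl12 entered this fit through the macrophages and are left out of this count. Under library totals the share of higher genes among all calls moved from 60.4% to 48.5%, and the Ccl3 call held. Ccl6 stood at 0.57 ± 0.15 (SE) and missed the threshold (adjusted p = 0.0605). Its monocyte groups were flat, at 1088 ± 132, 1053 ± 155, 1122 ± 179 and 1159 ± 187 CPM (SD, n = 5 each) in young saline, young ISRIB, old saline and old ISRIB.

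**Figure D2:**
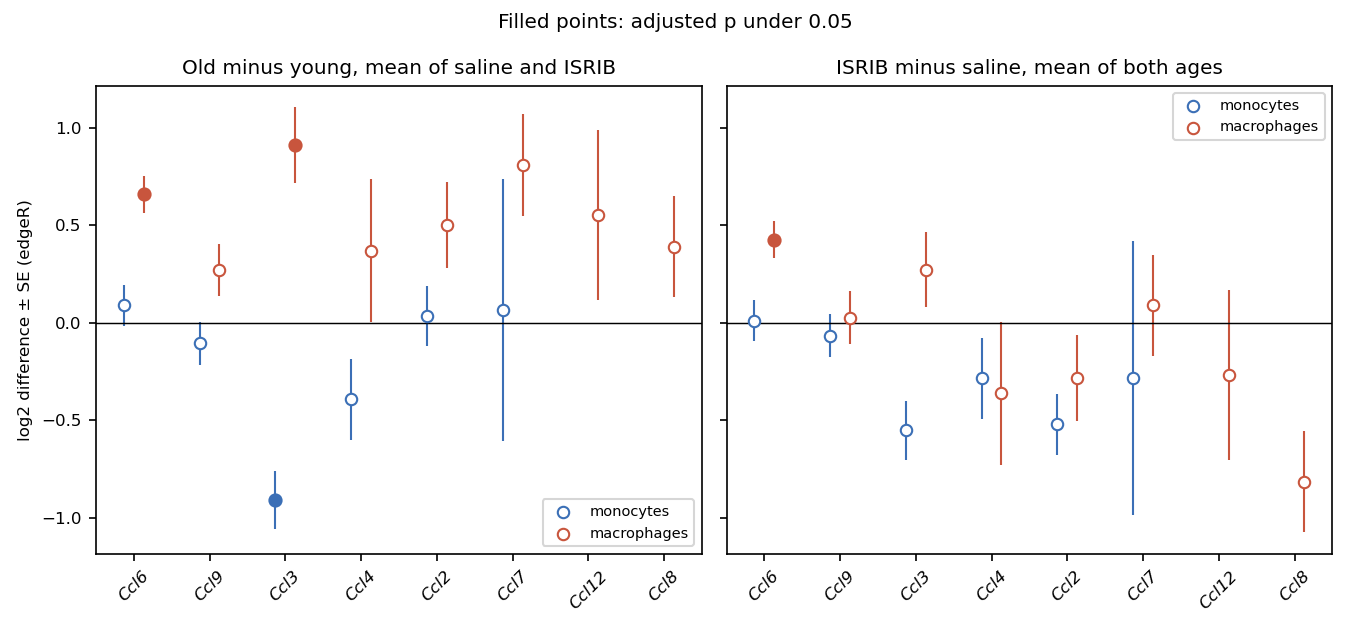
log2 differences with SE from edgeR for old minus young (left) and ISRIB minus saline (right), each the mean of the 2 strata, in monocytes (blue) and macrophages (red). Filled points passed an adjusted p under 0.05, and Ccl8 and Ccl12 have no monocyte value. Ccl3 sits at -0.91 in monocytes and 0.91 in macrophages with age, and Ccl6 is the only filled point for ISRIB.

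ISRIB was compared with saline within each age. In macrophages no chemokine passed at either age. In young macrophages edgeR called 0 of 12171 genes (0%), with 3 of the 8 and 1513 of all genes at an unadjusted p under 0.05, and DESeq2 called 0 of the 8 and 119 genes, limma voom 0 and 0. In old macrophages edgeR also called 0 genes (0%), with 1 of the 8 and 1112 of all genes at an unadjusted p under 0.05, and DESeq2 called 1 of the 8 and 49 genes, limma voom 0 and 0. Over both ages together 1 of 8 rose, where 0.452% of genes were higher. Under library totals the share of higher genes among those calls moved from 54.5% to 41.4%.

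That gene was Ccl6. Its mean was 2818 ± 89.9 CPM (SD, n = 5) in young saline and 3656 ± 636 CPM (SD, n = 4) in young ISRIB macrophages, with no overlap, and the log2 difference was 0.40 ± 0.14 (SE, adjusted p = 0.217). In old macrophages it was 4275 ± 923 CPM in saline and 5879 ± 1220.3 CPM in ISRIB (SD, n = 5 each), with overlap, and 0.45 ± 0.13 (SE, adjusted p = 0.284). The mean over both ages was 0.43 ± 0.10 (SE, adjusted p = 0.0341). This call hung on single libraries. It was lost when any 1 of 12 of the 19 was left out (young saline replicates 1 to 4, young ISRIB 1, 2 and 4, old saline 1, 2 and 4, old ISRIB 3 and 5; adjusted p up to 0.11), and when all 39 libraries were fitted together (0.0795, within a range of 6.41e-06 to 0.0795 over the alternatives). The size stayed between 0.37 and 0.48 with 1 library left out. Siglecf rose with ISRIB by 0.57 ± 0.12 (SE, adjusted p = 0.0329) in the same comparison, beside the marker sums given above, and its part was not tested.

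Ccl8 in macrophages ran lower with ISRIB but did not pass, at -0.82 ± 0.26 (SE, adjusted p = 0.103) over both ages. Young saline macrophages held 8.24 to 19.6 CPM and young ISRIB macrophages 6.36, 7.85, 2.18 and 5.81 CPM. Old saline libraries held 10.04, 14.9, 16.1, 6.08 and 17.6 CPM and old ISRIB libraries 8.49, 6.70, 15, 4.17 and 8.92 CPM. The groups overlapped at both ages. It was called by DESeq2 and by edgeR with no low-count filter (adjusted p 0.00660 to 0.223 over the alternatives). Ccl3 was at 0.63 ± 0.28 (SE, adjusted p = 0.354) in young and -0.09 ± 0.26 (SE, adjusted p = 0.955) in old macrophages. Ccl2 was at -0.56 ± 0.32 (SE, adjusted p = 0.484) in young and 0.00 ± 0.29 (SE, adjusted p = 0.987) in old macrophages.

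In monocytes ISRIB changed no chemokine past the threshold, and edgeR called 0 of 12170 genes (0%) in young mice, in old mice (0%) and over both (0%). At an unadjusted p under 0.05 there were 1, 2 and 2 of the 6 chemokines and 809, 918 and 911 of all genes. DESeq2 called none of the 6 and 0, 12 and 1 genes, and limma voom called none. Ccl7, at a mean of 0.385 CPM with ISRIB and 1.04 CPM with saline in young monocytes, had the widest difference, at -1.35 ± 1.02 (SE, adjusted p = 0.804). The lowest adjusted p values within 1 age were those of Ccl2 and Ccl3 in old monocytes. Ccl2 in old saline monocytes stood between 55.7 and 106 CPM, and in old ISRIB monocytes at 80.7, 48.2, 47.1, 35.1 and 28 CPM, of which only replicate 1 was within the saline range. The difference was -0.77 ± 0.22 (SE, adjusted p = 0.439). Ccl3 differed by -0.63 ± 0.21 (SE, adjusted p = 0.487) in old monocytes, and by -0.47 ± 0.21 (SE, adjusted p = 0.727) in young monocytes, where the groups did not overlap.

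Whether ISRIB acted differently by age was tested as an interaction. In macrophages 0 of the 8 and 0 of all genes passed in edgeR (0%), with 0 and 621 at an unadjusted p under 0.05, and in monocytes 0 of 6 and 0 of all genes (0%), with 0 and 865. DESeq2 and limma voom called none in either. The largest value in macrophages was that of Ccl3, -0.72 ± 0.39 (SE, adjusted p = 0.954), and that of Ccl2 was 0.56 ± 0.44 (SE, adjusted p = 0.973).

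The chemokines were also compared library by library after group means were removed, with permutation within groups (43 pairs, Benjamini-Hochberg adjusted). In the 19 macrophage libraries 23 of 28 pairs had a positive Pearson r, with a median of 0.39, and 3 pairs passed on r. Ccl2 and Ccl8 had r = 0.80 (permutation p = 3.2e-04, adjusted 0.00688) and Spearman rho = 0.84 (adjusted 0.003655), and r was 0.74 without the 2 libraries farthest from the Ccl2 median. Ccl3 and Ccl6 had r = 0.74 (permutation p = 0.0015, adjusted 0.0221) and rho = 0.71 (adjusted 0.0403), and 0.62 without the 2 farthest. Ccl7 and Ccl8 had r = 0.67 (permutation p = 0.0042, adjusted 0.0360) and 0.53 without the 2 farthest, but its rho of 0.60 did not pass (adjusted permutation p = 0.0907). The libraries share their depth and mix of cells across genes, so these values describe libraries and not single cells.

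In the 20 monocyte libraries 15 pairs could be computed, and 2 passed on r. Ccl6 and Ccl9 had r = 0.87 (permutation p = 7e-05, adjusted 0.00301) and rho = 0.83 (adjusted 0.003655), and 0.80 without the 2 farthest. In macrophages that pair had r = 0.19 (permutation p = 0.54, adjusted 0.704) and rho = 0.15. The difference between the cell types was not tested. Ccl2 and Ccl3 had r = 0.74 (permutation p = 0.0033, adjusted 0.0354) and rho = 0.66 (adjusted 0.0403) in monocytes, and 0.52 without the 2 farthest. Ccl3 and Ccl4 had r = 0.68 (permutation p = 0.011, adjusted 0.0540) and rho = 0.52, and 0.42 without the 2 farthest. Other monocyte pairs rose when the 2 libraries farthest from the Ccl2 median were left out. Ccl2 and Ccl9 went from r = 0.06 to 0.78, and Ccl2 and Ccl6 from 0.08 to 0.68. Several monocyte values therefore hung on few libraries, while Ccl6 and Ccl9 kept r = 0.80 without the 2 farthest from the Ccl6 median.

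**Figure D3:**
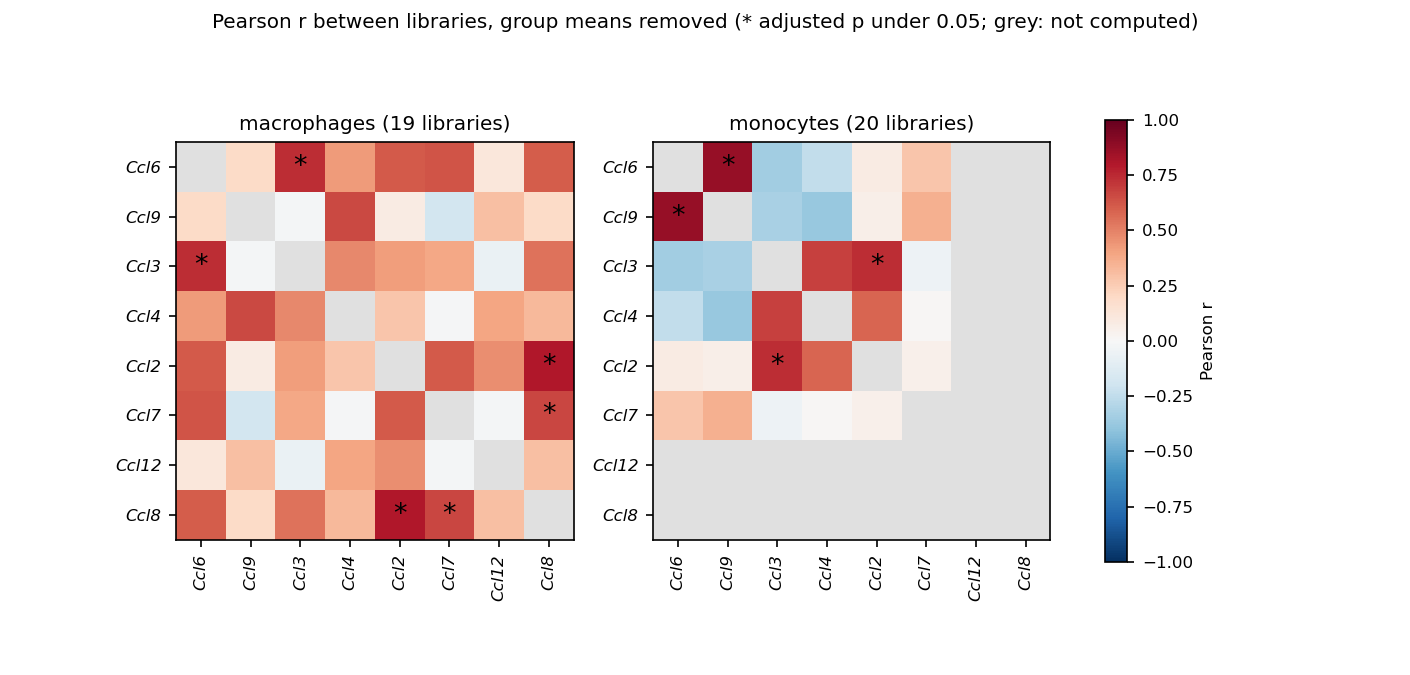
Pearson r between pairs of chemokines over libraries after group means were removed, in macrophages (19 libraries, left) and monocytes (20 libraries, right). Stars mark an adjusted p under 0.05 and grey cells were not computed. Ccl6 and Ccl9 have r = 0.87 in monocytes and 0.19 in macrophages, and Ccl6 and Ccl3 have r = 0.74 in macrophages.

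Of all 12171 genes tested in macrophages, those whose library-to-library pattern was most like Ccl6 were Thbd (r = 0.91 over 19 libraries), Mrc1 (0.88) and Pcbp2 (0.87). Thbd encodes thrombomodulin, and Mrc1 the mannose receptor of macrophages. Most like Ccl3 were Gstm1 (0.93), Plxna2 (0.90) and Egr1 (0.90), the last an immediate early transcription factor. Ccl2 was most like Abcd2 (0.88), Fcgrt (0.86) and Cd81 (0.84), and Ccl8 most like Traf3ip3 (0.84), Smim27 (0.83) and Sbds (0.82). For Ccl7 they were Mrc1 (0.82), Cdk6 (0.79) and A230083G16Rik (0.77), and for Ccl9 Ostc (0.85), Sec14l3 (0.84) and Tspan3 (0.79). In monocytes, over 20 libraries, Ccl6 was most like Sec23b (0.88), Ninj1 (0.88) and Ift74 (0.82), and Ccl9 most like Gmpr2 (0.86), Slc7a5 (0.81) and Rnf187 (0.80). Ccl3 was there most like Slc12a9 (0.85), Ccl2 most like Pik3r2 (0.80) and Ccl4 most like Ptger4 (0.77). Each named gene was picked as among the highest of 12171 correlations in macrophages or 12170 in monocytes. A maximum over so many genes and so few libraries can be large without any relation, and none of these was tested.

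Receptors and neighbours of the pathway gave the context of these ligands. Of 15 CC chemokine receptors, 5 were expressed enough to test in macrophages and 7 over all libraries. Ccr2, the receptor of Ccl2, Ccl7 and Ccl12, ran from 1057 to 3958 CPM in monocytes and from 53.4 to 453 CPM in macrophages, and it fell with age in macrophages by 1.27 on the log2 scale in the mean of both treatments (SE 0.19, adjusted p = 2.32e-04). Ccr1, the receptor of Ccl6 and Ccl9, had 243 ± 43.6 CPM (SD, n = 5) in young and 213 ± 43.1 CPM (SD, n = 5) in old saline macrophages, and it is named for its role and not by the rule for named genes.

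In the old against young comparison over both treatments in macrophages, 1.74% of all genes were lower and 3.12% higher, and the median of all genes was 0.00. Of 5 tested receptors 0 rose and 2 fell, Ccr2 among them, with a list median of -0.10. Of 5 other CC chemokines 1 rose and 0 fell, with a list median of 0.79. It was Ccl5, a T and NK cell chemokine, at 2.15 ± 0.43 (SE, adjusted p = 0.00345), and in old against young monocytes it rose by 2.74 ± 0.39 (SE, adjusted p = 0.00178). The T and NK cell markers had medians of 15.5 and 23.5 CPM in young saline and ISRIB monocytes and 22.8 and 52.1 CPM in old ones, and their part in Ccl5 was not tested. Of 21 inflammatory inducers and feedback genes, 4 rose and 1 fell with age in macrophages, with a list median of 0.19. They were Il1a, Nfkbia, Nfkbie and Tnfaip3, which rose, and Myd88, which fell, named here, as is Ccrl2, after their values were seen. Of 19 immediate early genes none passed, with a median of 0.29 over both treatments, 0.61 in saline and -0.08 in ISRIB. Of 17 tested integrated stress response genes 5 rose and 0 fell, with a list median of 0.28, among them Gdf15 at 1.30 ± 0.27 (SE, adjusted p = 0.00399) and Phgdh at 1.05 ± 0.16 (SE, adjusted p = 3.00e-04).

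Under saline alone, old macrophages differed from young ones in Gdf15 at 1.46 ± 0.37 (SE, adjusted p = 0.0464), Ccr2 at -1.45 ± 0.27 (SE, adjusted p = 0.00841), Atf5 at 1.40 ± 0.35 (SE, adjusted p = 0.0440) and Tnfaip3, an NF-kappaB feedback gene, at 1.33 ± 0.20 (SE, adjusted p = 9.79e-04). There 0.937% of all genes were higher and 0.222% lower. Of the lists, 1 receptor rose (Ccrl2) and 1 fell (Ccr2), 4 of 21 inflammatory genes rose (median 0.30) and 3 of 17 stress response genes rose (median 0.27). With ISRIB over both ages, Bcl3 fell by 0.74 on the log2 scale (SE 0.13, adjusted p = 0.00920) and Atf5 rose by 1.02 ± 0.24 (SE, adjusted p = 0.0429), as 1 of 21 and 1 of 17 genes of their lists, where 0.378% of all genes were lower and 0.452% higher. Between cell types, Ccl17 and Ccl22, both ligands of CCR4, entered the fit through the macrophages as Ccl8 did, so only their levels are given. In young saline mice Ccl17 stood between 15.3 and 29.7 CPM in macrophages and at 0 to 0.665 CPM in monocytes, and Ccl22 between 5.38 and 13.4 CPM and at 0 to 0.554 CPM. Ddit4, a stress-induced inhibitor of mTOR signalling, and Ptgs2, which encodes cyclooxygenase, were lower in young saline macrophages by -6.82 ± 0.52 (SE, adjusted p = 2.05e-14) and -6.03 ± 0.68 (SE, adjusted p = 6.39e-10). In the difference of the age differences, Ddit4 at 2.26 ± 0.53 (SE, adjusted p = 0.0258) and Nfkbia, an NF-kappaB inhibitor, at 0.83 ± 0.18 (SE, adjusted p = 0.0138) moved in the same direction as Ccl3, and Ccr2 at -1.49 ± 0.28 (SE, adjusted p = 0.00456) in the opposite one. Of the 19 immediate early genes 17 were lower and 1 higher in young saline macrophages than monocytes, with a list median of -2.16 beside 0.01 over all genes, of which 29% were lower. In old saline mice 15 were lower and 1 higher, with a list median of -1.54 beside 0.00, where 27.3% of all genes were lower. Their summed CPM had a median of 21384 in young saline monocytes and 3831 in young saline macrophages, and of 18499 and 5247 in old ones. Ccl2 and Ccl4 were lower in macrophages at both ages, while Ccl3 was lower in young and higher in old macrophages. The part of these genes in those differences was not tested.

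Each library held between 4595331 and 16056708 counts (median 8628240). Of the markers of the labelled cells, the 9 mature alveolar macrophage markers summed to 602 to 2142 CPM over monocyte libraries and 4625 to 14275 CPM over macrophage libraries. That list holds Chil3, which is also in the list of classical monocyte markers. Neutrophil markers were at 435 to 811 CPM in monocyte and 79.7 to 161 CPM in macrophage libraries, with Ly6g at 0 in every macrophage group. No 2 libraries of a group were alike within sampling noise. Scaling by library totals moved the median of all genes by -0.13 in old saline macrophages against monocytes, the largest such shift, and by less than 0.1 in the other comparisons.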

How the data were processed

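RNA was measured in 39 libraries prepared with polyA selection from 3 ng of total RNA and sequenced on an Illumina NextSeq 500, per the labels' protocols and the series text. The deposited table holds unnormalized counts for each Ensembl gene, with 1 column per library, per the file headers. The submitters' processing notes name mm10, bcl2fastq 2.19.1, FastQC, Trimmomatic 0.36, STAR 2.6.0 and HTSeq 0.11.2. Program settings, strand handling and gene models were not given in the sources used here, so reads of overlapping genes may be split or lost. Symbols and coordinates came from GENCODE vM21 on GRCm38, the assembly mm10 denotes, for 42462 of 43430 IDs.

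The 8 genes, the gene lists and the tests were chosen with earlier results of these data known. Counts were fitted with edgeR 4.0.16 (TMM, filterByExpr with a minimum count of 10 and a minimum total of 15, quasi-likelihood F test, Benjamini-Hochberg over all genes tested, threshold 0.05) on 19 macrophage libraries (12171 genes), 20 monocyte libraries (12170 genes) or all 39 (13587 genes). SE is the log2 difference divided by the square root of F. CPM is the count divided by the library total and multiplied by 1000000. On simulated counts for old against young saline macrophages (11905 genes), 42% of genes changed 1.5-fold, 78% at 2-fold and 92% at 4-fold were recovered, and 11 of 167 calls were false.

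Pairs of chemokines were correlated on log2 CPM (prior count 2) with group means removed and 100000 permutations within groups; the plan assumed 28 pairs in each cell type, and 15 could be computed in monocytes. From other lists, up to 4 genes per comparison are named, those with the largest called difference and at least 5 CPM in the higher group. Alternatives were DESeq2 1.42.0, limma voom 3.58.1, DESeq2 size factors, no filter, a replicate block, all 39 libraries in one fit, only the groups compared, leaving out each library and, chosen after seeing the data, library totals in place of TMM. No label names a batch. The values of 1 receptor are not reported here. Intervals cover counting error only.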

Additional observations from a re-analysis of the deposited data

Results flagged for a closer look

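Of 62 sets of 4 or 5 libraries (a chemokine in a group), 5 had a library far from the others. The rule flags about 1 in 20 sets of normally spread values. That rate does not hold for sets with libraries at 0, such as the Ccl8 and Ccl12 sets flagged here. Ccl3 in young ISRIB monocytes was 40.3 CPM in replicate 3, below 4 libraries that lay between 44.8 and 46.3 CPM. Ccl8 was 0.218 CPM in young ISRIB monocyte replicate 3 (2 counts) and 0.0981 CPM in old saline monocyte replicate 2 (1 count), with 0 in the other 4 libraries of each group. Ccl12 reached 2.61 CPM in young saline monocyte replicate 4 (12 counts) and 1.14 CPM in old saline monocyte replicate 5 (8 counts), against at most 0.125 and 0.196 CPM in the others. The remaining flag was a tested difference between cell types: the age difference of Ccl3 was 1.82 higher on the log2 scale in macrophages than in monocytes.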

How the results depend on the processing

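No called chemokine changed direction in any fit. Among counts of chemokines past the threshold, under alternative fits 113 stayed within 1.5 times the reported count and 13 did not, and with 1 library left out 226 stayed and 28 did not. DESeq2 called 1 chemokine for ISRIB in old macrophages, 2 for ISRIB over both ages in macrophages, 1 for age in saline monocytes, 1 for age in ISRIB monocytes and 2 for the difference of the age differences. Without a filter on low counts, 2 passed for ISRIB in young and 1 in old macrophages, 2 for ISRIB over both ages, 2 for age in ISRIB macrophages, 5 for age over both treatments in macrophages, 1 for age in ISRIB monocytes and 2 for the difference of the age differences. With all 39 libraries in one fit, 0 passed for ISRIB over both ages in macrophages. With 1 library left out, 0 to 1 passed for ISRIB in young macrophages, 0 to 1 for ISRIB over both ages, 0 to 2 for age in saline macrophages, 0 to 1 for age in ISRIB macrophages, 0 to 1 for age in ISRIB monocytes and 1 to 2 for the difference of the age differences. Of the 43 correlated pairs, 5 passed as reported and 11 with library totals, and the cause was not tested. Without the 2 libraries farthest from the median of the first gene, 2 pairs passed, so most of the 5 calls were lost there. Those 2 are not named here and need not be among the 5.

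The labels do not say what libraries of the same replicate number share. Same-numbered libraries had correlations of -0.15 to 0.17 in macrophages and -0.19 to 0.24 in monocytes. Pairs with different numbers had -0.22 to 0.22 and -0.26 to 0.24. In all, 6 of 19 and 5 of 20 libraries correlated best with their own number. So few libraries cannot show whether a number stands for a shared source. With the numbers as a replicate block the counts did not move (2 chemokines for age in saline macrophages, 1 in ISRIB macrophages, 1 for ISRIB over both ages). Depth limits Ccl4, Ccl7, Ccl8 and Ccl12 most, at 0 to 189 counts per library.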
